A study of Mus musculus with 4 samples.

Results

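The cell division genes are a module of 45 mouse genes, chosen by symbol from a fixed list, that act in DNA replication, chromosome condensation, chromosome segregation and the final cut between daughter cells. All 45 were among the 40091 genes with a row in the 4 deposited nuclear count matrices, and each of them had unique molecular identifiers (UMIs, counts of captured RNA molecules) in every library. The question was which marker-defined cell types of the thalamus, besides microglia, held dividing nuclei after a haemorrhage. The study profiled single nuclei from the thalamus of adult C57BL6 mice, aged 7 to 8 weeks, at 7 days after a microinjection into the right ventral posterior nuclei. The COL group received Coll IV, a collagenase that opens the vessel wall, at 0.01 U in 10 nl, and the NS group received the same volume of saline. No genetic change was carried by either group, and the injection itself was shared by both. Each group held 2 libraries and each library pooled 3 mice, so the library was the replicate, the spread given below is that between pools, and differences among the mice of a pool were not measured.

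A dividing cell copies its DNA in S phase, condenses the copies, attaches them to the spindle at the kinetochores, and separates the daughters in cytokinesis. The genes for these steps are transcribed together as a cell passes from S phase to mitosis and are mostly silent in cells that have left the cycle. In the adult brain, oligodendrocyte precursor cells (OPCs) keep dividing at a low rate, microglia and astrocytes can re-enter the cycle after injury, and neurons are postmitotic. Neurons were therefore used as the level against which the other types were read.

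The promoters of 5 members are shown because the members moved together and share short sequence elements known from cell cycle promoters. The elements searched on both strands, in the 250 bases before the RefSeq start of each gene on build GRCm38.p6, were TTTGAA (the cell cycle homology region), CCAAT (the box bound by NF-Y) and the E2F-type elements TTTGGCGC and TTTCGCGC, which can overlap each other. A promoter was matched for 39 of the 45 members, and CCAAT was present in 29 of the 39 (74.4%) against 34.5% of all 27025 promoters. TTTGAA was present in 11 (28.2%) against 16.3%, TTTGGCGC in 4 (10.3%) against 0.437%, and TTTCGCGC in 3 (7.69%) against 0.255%. TTTGAA and CCAAT were found together in 9 of the 39 (23.1%) against 5.73% of all promoters. These matches are descriptions of the letters and not of bound sites. The stretches below are the 150 bases before the start, read 5′ to 3′ on the strand of the gene, with the elements of either strand in capitals. They lie at chr11:99024190-99024339 (Top2a, minus strand), chr7:135716380-135716529 (Mki67, minus strand), chr10:69352913-69353062 (Cdk1, minus strand), chr19:37376232-37376381 (Kif11, plus strand) and chr1:128359706-128359855 (Mcm6, minus strand). Each ends just before the RefSeq start, and in the GENCODE annotation the Cdk1 gene spans 69335146 to 69352938 on chromosome 10, so that the last bases of its stretch, with 1 of its TTTGAA elements, lie inside the annotated gene.
Top2a: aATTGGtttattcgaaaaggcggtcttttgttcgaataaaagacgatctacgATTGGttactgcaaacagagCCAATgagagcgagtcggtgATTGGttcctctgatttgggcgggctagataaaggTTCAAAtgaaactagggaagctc
Mki67: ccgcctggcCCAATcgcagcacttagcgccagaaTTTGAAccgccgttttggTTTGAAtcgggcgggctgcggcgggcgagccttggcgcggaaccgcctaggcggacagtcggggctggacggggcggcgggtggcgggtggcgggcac
Cdk1: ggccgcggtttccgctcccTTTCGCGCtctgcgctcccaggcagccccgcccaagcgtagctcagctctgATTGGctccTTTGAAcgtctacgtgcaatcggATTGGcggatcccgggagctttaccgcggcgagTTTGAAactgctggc
Kif11: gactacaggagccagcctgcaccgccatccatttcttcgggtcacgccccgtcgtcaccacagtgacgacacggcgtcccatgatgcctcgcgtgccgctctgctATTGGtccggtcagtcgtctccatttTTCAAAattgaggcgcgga
Mcm6: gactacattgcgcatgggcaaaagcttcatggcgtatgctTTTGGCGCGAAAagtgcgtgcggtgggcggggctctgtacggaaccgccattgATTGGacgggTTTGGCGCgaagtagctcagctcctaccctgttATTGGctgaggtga
Top2a and Mki67, which act on chromosome structure, Cdk1, the kinase that starts mitosis, and Kif11, a spindle motor, carry TTTGAA with CCAAT in these stretches, and Cdk1 also carries TTTCGCGC. Mcm6, a subunit of the replicative helicase, carries both E2F-type elements and CCAAT, without TTTGAA.

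The 4 libraries held 32291 nuclei after the filter on gene number and mitochondrial reads, with between 68723738 and 77546840 UMIs in the kept nuclei of a library and median depths of 4649 to 8691 UMIs per nucleus. Cell types are names for clusters made without the cell division genes and matched to marker lists, and each name stands for nuclei that resemble that type. COL nuclei were deeper in every type: the median was 4206 UMIs in COL and 2107 in NS microglia, 7564 and 4569 in OPCs, and 14993 and 9451 in neurons, and for this reason shares are also given after thinning to equal depth. Within most types NS and COL nuclei fell in different clusters, with COL microglia in cluster 9 and NS microglia in cluster 12, COL astrocytes in 17 and NS astrocytes in 4, COL oligodendrocytes in 2 and NS oligodendrocytes in 1 and 6, and OPCs in 11 (both groups) and 14 (NS). Some named clusters also scored high on a list that the naming did not limit, where a score is the mean of the markers' levels, each scaled from 0 to 1 over the clusters. Cluster 9 of COL microglia scored 0.828 on the microglial and 0.537 on the macrophage list, and cluster 17 of COL astrocytes 0.933 on the astrocyte and 0.917 on the ependymal list. The macrophage cluster scored 0.829 on its own list, 0.875 on that of dendritic cells and 0.82 on that of neutrophils, so that its name stands for myeloid nuclei led by F13a1 and Gpnmb. Doublets were kept in the main values and scored by scrublet, a caller of nuclei captured together, and 102 barcodes occurred in more than 1 library. The nuclei with the highest scores were marked, in a share set by the number of nuclei of the library. This marked 749 and 869 NS and 281 and 314 COL nuclei, where the caller's own threshold gave 1, 476, 294 and 338.

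Nuclei with transcripts of several division genes were frequent in microglia and OPCs of the COL group, and made up a smaller share in the other types with at least 20 nuclei in each library. A nucleus was called dividing when it held UMIs of at least 3 of 23 core genes, all members with a part in mitosis or its preparation, such as Top2a, Mki67, Cdk1 and Cenpe. In NS microglia 1 of 321 and 3 of 343 nuclei met this rule, and in COL microglia 76 of 366 (20.8%, 95% exact Clopper-Pearson interval 16.7 to 25.3) and 109 of 528 (20.6%, 17.3 to 24.4). The group means were 0.593% ± 0.398 in NS and 20.7% ± 0.0856 in COL (SD, n = 2), and the libraries of the 2 groups did not overlap. These intervals cover counting error alone. OPCs, which were clustered together with committed oligodendrocyte precursors, were the second population: 6 of 399 and 9 of 430 nuclei met the rule in NS, against 35 of 210 (16.7%, 11.9 to 22.4) and 38 of 296 (12.8%, 9.25 to 17.2) in COL. Their means were 1.80% ± 0.417 and 14.8% ± 2.71 (SD, n = 2). For both types the two-sided exact permutation p was 0.333, the smallest that 2 libraries against 2 allow, so this test cannot pass 0.05 for any type.

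The neurons set the background of this rule. Of the NS neurons, 68 of 5020 and 39 of 4350 met it (1.13% ± 0.324, SD, n = 2), and of the COL neurons 61 of 2931 and 108 of 2686 (3.05% ± 1.37). These shares fell when each nucleus was thinned to 2000 UMIs, to 1 of 9347 in NS and 3 of 5617 in COL, whereas after the same thinning 144 of 880 COL microglia (mean 16.3%) and 43 of 506 COL OPCs (mean 8.79%) were still called, against 4 of 370 and 10 of 823 in NS. The thinning left out 1234 NS nuclei and 82 COL nuclei of lower depth.

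**Figure D1:**
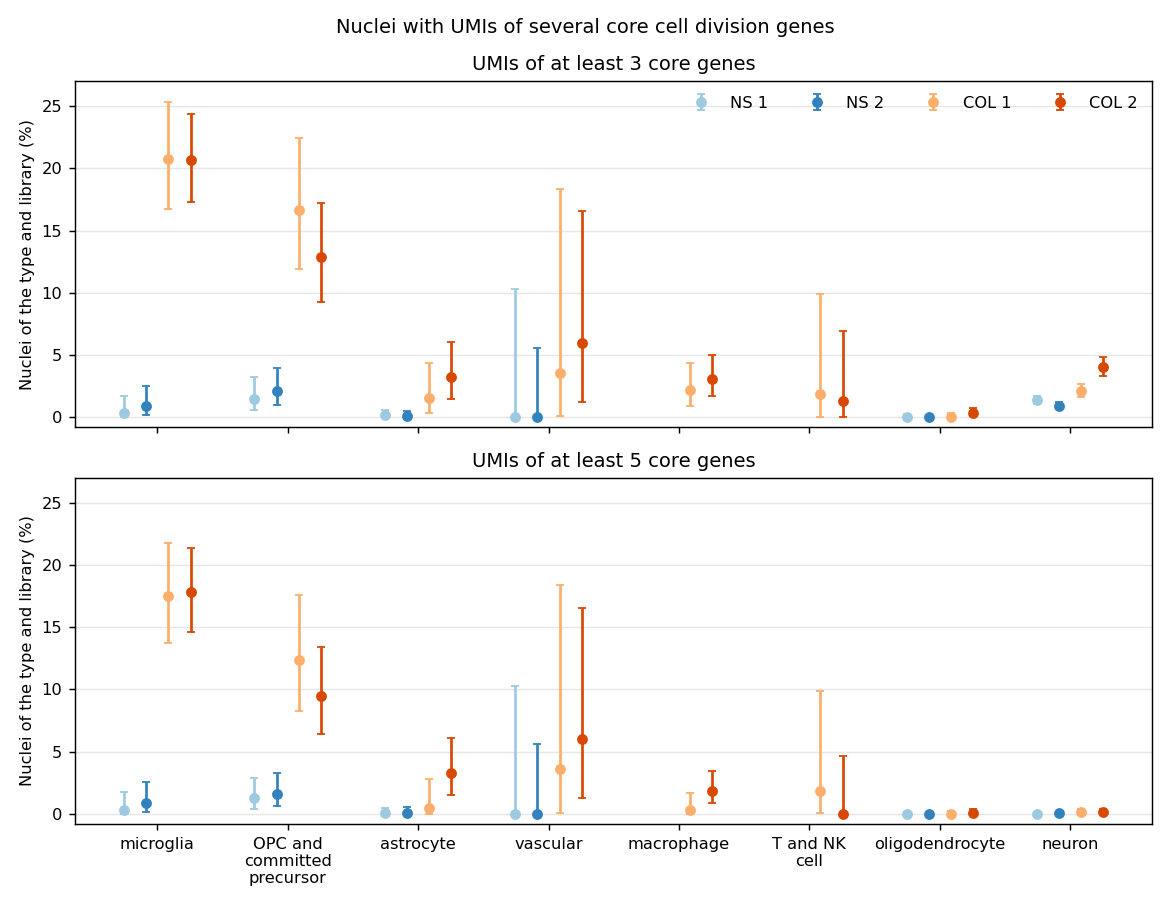
Share of the nuclei of each cell type (%) with UMIs of at least 3 (upper panel) or at least 5 (lower panel) core genes, with a point for each library and a bar for its exact 95% interval; libraries with few nuclei of a type are left out. With at least 5 core genes, COL microglia (17.5% and 17.8%) and COL OPCs (12.4% and 9.46%) lie above their NS libraries.

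A stricter rule of at least 5 core genes gave a clearer view, since 3 of 9370 NS and 9 of 5617 COL neurons met it. By this rule 4 of 664 NS and 158 of 894 COL microglia were dividing, as were 12 of 829 NS and 54 of 506 COL OPCs. Among 2254 NS astrocytes 2 met it, and among 474 COL astrocytes 10, of which 9 were in COL replicate 2 (3.25%, 1.50 to 6.08) and 1 in COL replicate 1 (0.508%, 0.0129 to 2.80). The intervals of the 2 COL libraries overlapped, and the share in COL replicate 1 lay within the interval of NS replicate 2, which reached 0.524%. Among oligodendrocytes 0 of 5637 NS nuclei and 1 of 3167 COL nuclei met the rule. Of 78 COL vascular nuclei 4 met it (1 of 28 and 3 of 50), against 0 of 34 and 0 of 64 in NS, which allow shares of up to 8.82% and 4.69%, so that no difference was detectable at this depth. Macrophages and T and NK cells were nearly restricted to the COL libraries, and their 10 and 14 NS nuclei allowed no comparison. In COL, 1 of 324 and 9 of 486 macrophages and 1 of 54 and 0 of 78 T and NK cells met the rule, and 1 of the 14 NS T and NK nuclei did so.

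Of all 270 COL nuclei with at least 5 core genes, 58.5% were microglia and 20.0% OPCs, although microglia were 7.33% and OPCs 4.15% of the COL nuclei. Macrophages, with 6.64% of the nuclei, and astrocytes, with 3.89%, contributed 3.70% each. Clusters of mixed markers contributed 23 nuclei (8.52%), of which 21 were among those marked as doublets. The mark fell on 1 of the 158 microglia, on 0 of the 54 OPCs and on 0 of the 10 astrocytes, but on 5 of the 9 neurons and 3 of the 10 macrophages. In NS there were 22 such nuclei, and OPCs were 54.5% of them and microglia 18.2%.

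The number of core genes per nucleus varied widely among the dividing nuclei. In COL microglia 503 nuclei had no core gene, 165 had 1 and 41 had 2, while dividing nuclei reached up to 22 of the 23 core genes. In COL OPCs 292 nuclei had none and the highest reached 21. The highest COL nuclei of other types held 21 core genes in vascular nuclei, 19 in macrophages, 18 in astrocytes, 16 in oligodendrocytes and 14 in neurons. Of the COL neurons over the threshold 129 had 3 core genes and 31 had 4.

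**Figure D2:**
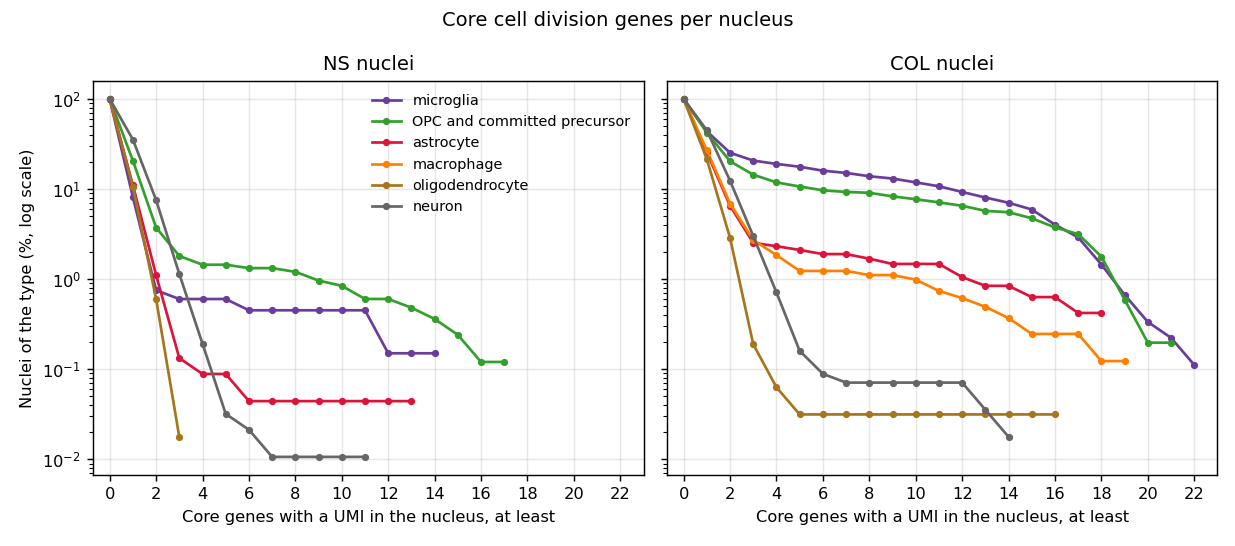
Share of the nuclei of a type (%, log axis) that had UMIs of at least the number of core genes on the horizontal axis, for NS (left) and COL (right) nuclei, with a line for each cell type. The COL microglia and OPC lines run on to 22 and 21 core genes.

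The OPC cluster held cells at several steps of the lineage, and the dividing nuclei among them lay on the precursor side. When each nucleus was typed by its own markers in place of its cluster, 21 of 146 and 22 of 182 COL nuclei with an OPC profile (Pdgfra, Vcan and Cspg4 among the markers) had at least 5 core genes, against 5 of 301 and 6 of 313 in NS. Of the nuclei with a committed precursor profile (Bcas1, Enpp6 and Gpr17 among the markers), 1 of 84 and 4 of 138 did so in COL and 0 of 71 and 0 of 67 in NS. Microglia typed in this way gave 30 of 200 and 53 of 331 in COL against 1 of 301 and 2 of 304 in NS. Macrophages gave 3 of 138 and 9 of 177 in COL. Astrocytes gave 0 of 162 and 8 of 251 in COL against 1 of 1138 and 0 of 1011 in NS. Oligodendrocytes gave 1 of 1511 and 5 of 1577 in COL against 0 of 5663 in NS. Neurons gave 6 of 3061 and 15 of 2795 against 1 of 5173 and 2 of 4512. Endothelial, pericyte and smooth muscle, and fibroblast nuclei gave 1 of 17, 1 of 21 and 1 of 25 in COL. In NS they gave 0 of 14, 0 of 39 and 0 of 21. This typing left 558 and 702 COL nuclei without a type, of which 42 and 46 had at least 5 core genes.

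Summed over all 45 members, division transcripts took up a larger part of the RNA of COL microglia than of any other type with at least 20 nuclei per library. The sums per 10,000 UMIs of the type were 3.04 and 3.57 in NS and 25.5 and 26.8 in COL microglia, a 7.91-fold ratio of the group means. In OPCs they were 5.60 and 4.94 in NS and 16.6 and 15.5 in COL (3.04-fold). In vascular nuclei they were 4.24 and 2.39 against 11.2 and 12.1 (3.51-fold). The vascular difference was 8.33 per 10,000 from these sums and 2.21 as a mean over nuclei, and 4 of the 78 COL vascular nuclei held at least 5 core genes. In astrocytes the sums were 3.04 and 3.00 against 4.88 and 7.09 (1.98-fold). In each of these 4 types both COL libraries were above both NS libraries, with an exact permutation p of 0.333. Neurons had 2.27 and 2.23 in NS and 2.03 and 2.46 in COL, which overlapped. Oligodendrocytes had 4.94 and 5.09 against 5.71 and 5.74, of which a large part came from Anln, which encodes anillin, a scaffold of the contractile ring that is also made by myelinating cells. COL macrophages had 5.35 and 7.42 against 4.95 and 5.30 in the 10 NS nuclei, and T and NK cells had 12.1 and 7.63 in COL against 41.1 and 7.45 in the 9 and 5 NS nuclei, which overlapped.

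The sums of the functional groups are given as ratios of group means, and the differences between groups were not tested. In microglia the sum of the 9 kinases, cyclins and checkpoint genes had means of 0.103 in NS and 1.32 in COL per 10,000 UMIs (12.8-fold, from 9 and 6 NS UMIs), that of the 7 spindle genes 0.440 and 4.46 (10.2-fold) and that of the 3 cytokinesis genes 0.282 and 2.82 (9.99-fold). The 5 kinetochore genes had 0.502 and 4.43 (8.83-fold), the 6 chromosome structure genes 0.645 and 5.68 (8.82-fold) and the 15 replication genes 1.34 and 7.44 (5.56-fold). In OPCs the kinetochore sum had means of 0.561 and 2.84 (5.06-fold), the spindle sum 0.508 and 2.42 (4.75-fold), the chromosome structure sum 0.717 and 2.96 (4.13-fold) and the replication sum 2.50 and 4.88 (1.96-fold). In both types the ratio was smallest for the replication genes. No NS library reached a COL library in any of these sums.

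**Figure D3:**
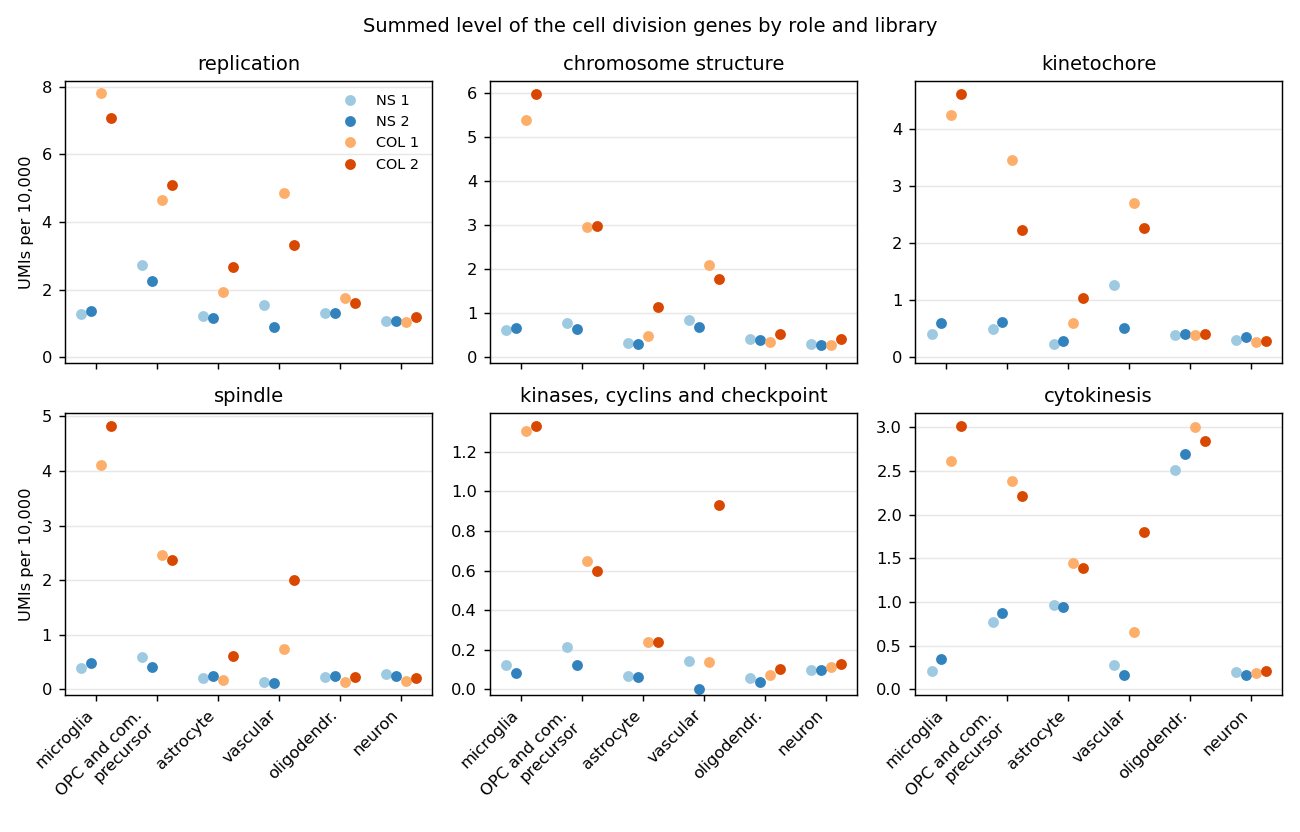
Summed UMIs per 10,000 UMIs of the cell type for each functional group of members (panels, each with its own scale), with a point for each library. The COL libraries of microglia and OPCs lie above their NS libraries in all 6 panels, and the oligodendrocyte sum for cytokinesis lies between 2.51 and 3.01 in the 4 libraries.

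Gene by gene, division transcripts of every functional group were higher in COL microglia. By edgeR's quasi-likelihood test on the library sums, with Benjamini-Hochberg adjustment over all genes tested, 38 of the 39 members tested were higher in COL and none was lower, where 13.5% of all 11881 genes tested were higher and 13.8% lower. The other 6 members, Aurkb, Ccna2, Ccnb1, Mcm2, Plk1 and Rrm2, were below the filter on low counts. With no filter 42 of 45 were higher, where 2194 of 25248 genes were. Of the 39, Cdk1 and Aurka had 0 UMIs in NS, passed the filter through COL and could not be called lower. Brip1, Ncapg and Mcm5, with 2 NS UMIs each, and Brca1 and Kif23, with 3 each, also passed it through COL. Among the members whose levels are given below, Mki67, Cenpe, Kif11, Tpx2 and Diaph3 did so too. Their NS counts alone would not have passed it, so that these members could not be called lower. The median log2 change over the 39 was 3.14, beside a median of 0.00 over all genes. Levels below are in CPM, the UMIs of a gene scaled to a common total of all UMIs of the type. The 4 values of a gene always follow the order of NS replicate 1, NS replicate 2, COL replicate 1 and COL replicate 2.

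All 6 chromosome structure genes were higher in COL microglia. Mki67, which encodes the Ki-67 protein that coats mitotic chromosomes, measured 5.39, 8.38, 144 and 157 CPM, a log2 change of 4.48 ± 0.30 (SE, adjusted p = 5.0e-06). Top2a, the topoisomerase that untangles sister DNA, measured 13.5, 16.8, 142 and 196 CPM (log2 3.53 ± 0.28, adjusted p = 2.1e-05). Its transcripts were present in 2 and 3 NS nuclei and in 66 and 115 COL nuclei. Smc4, a subunit of condensin, measured 16.2, 19.5, 109 and 107 CPM (log2 2.64 ± 0.26). In each of these genes the lower COL library was several times the higher NS library.

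All 5 kinetochore genes were higher. Cenpe, a motor that carries chromosomes along microtubules, measured 2.69, 2.79, 74.8 and 88.0 CPM (log2 4.89 ± 0.40, adjusted p = 2.6e-05). Knl1, a scaffold of the outer kinetochore, measured 12.1, 16.8, 134 and 112 CPM (log2 3.12 ± 0.28), and Cenpp, a centromere protein, 18.9, 19.5, 129 and 134 CPM (log2 2.81 ± 0.24). The gene body of Cenpp overlaps 6 protein-coding genes on the opposite strand, none of them on its own. The spindle genes were higher in 7 of 7, among them Kif11 (6.73, 2.79, 75.4 and 78.2 CPM, log2 4.02 ± 0.38), Tpx2, which activates Aurora A at the spindle (4.04, 5.59, 65.2 and 60.5 CPM, log2 3.73 ± 0.38), and the kinesin Kif15 (13.5, 15.4, 83.9 and 101 CPM, log2 2.72 ± 0.28). The 3 cytokinesis genes followed, and Diaph3, a formin that assembles actin filaments, had the smallest p of all members, at 8.08, 9.77, 170 and 186 CPM (log2 4.35 ± 0.27, adjusted p = 3.6e-06). Anln measured 12.1, 20.9, 56.7 and 67.6 CPM.

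Of the replication genes 12 of 13 tested were higher. Pola1, the catalytic subunit of DNA polymerase alpha, measured 29.6, 19.5, 168 and 152 CPM (log2 2.74 ± 0.24, adjusted p = 3.7e-05). Brip1, a helicase that acts with Brca1 in DNA repair, had 2 and 0 UMIs in NS against 136 and 188 in COL, a ratio of 56.2 with a counting interval of 15.4 to 466. Ezh2, the methyltransferase of Polycomb complex PRC2, measured 26.9, 30.7, 109 and 104 CPM. Pcna, the sliding clamp of the polymerases, was the exception, at 13.5, 22.3, 13.3 and 16.9 CPM (log2 -0.18 ± 0.40, adjusted p = 0.78), with groups that overlapped. Mcm3, Mcm4 and the cyclin gene Ccnb2 passed the threshold narrowly, with adjusted p of 0.039, 0.047 and 0.049.

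The regulators of mitotic entry were rare and measured in few nuclei. Singled out after their values were seen, Cdk1, Aurka, Plk1, Ccnb1 and Rrm2 had 0 UMIs in both NS microglial libraries, and 50, 63, 29, 25 and 37 UMIs over the COL libraries. Set against a floor of 3 UMIs over the NS group, Cdk1 was at least 5.79-fold higher and Aurka at least 7.29-fold higher in COL. The bounds were 3.36 for Plk1, 2.89 for Ccnb1 and 4.28 for Rrm2, a subunit of ribonucleotide reductase.

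The marker lists of the microglia moved in the same comparison. The summed level of the 10 microglial markers was 62.3 and 58.5 per 10,000 UMIs in NS and 35.7 and 36.0 in COL, that of the 9 macrophage markers 1.52 and 2.30 against 5.20 and 5.44, and that of the 10 oligodendrocyte markers 23.9 and 30.7 against 10.2 and 24.6. Their part in the change of the division genes was not tested. When each library was left out in turn, the COL minus NS difference in the summed level of the members was between 22.2 and 23.5 per 10,000 UMIs.

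In OPCs, which were 829 NS and 506 COL nuclei, 28 of the 38 members tested were higher in COL and none was lower, where 7.57% of all 13347 genes tested were higher and 9.13% lower. The median log2 change of the 38 was 1.85 beside 0.01 over all genes. With no filter 33 of 45 were higher, where 1401 of 26740 genes were. Every spindle gene (7 of 7), kinetochore gene (5 of 5) and cytokinesis gene (3 of 3) was higher, with 5 of 6 chromosome structure genes, whereas 6 of 13 replication genes and 2 of 4 kinases and checkpoint genes passed.

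Top2a measured 20.1, 20.0, 118 and 96.5 CPM in OPCs (log2 2.48 ± 0.21, adjusted p = 6.1e-05), and Mki67 6.39, 4.87, 61.2 and 51.2 CPM (log2 3.36 ± 0.29, adjusted p = 6.1e-05). Knl1 measured 10.5, 8.28, 82.6 and 56.0 CPM (log2 2.93 ± 0.29) and Cenpf, a protein of the kinetochore and nuclear matrix, 7.30, 10.2, 86.2 and 42.1 CPM (log2 2.91 ± 0.39). The COL libraries were apart from NS in each gene. Of the motors, Kif11 measured 7.30, 5.85, 39.2 and 43.3 CPM (log2 2.70 ± 0.28), Kif15 5.94, 5.85, 38.0 and 39.3 CPM (log2 2.77 ± 0.29) and Kif23, which bundles the central spindle, 5.48, 2.44, 23.2 and 31.0 CPM (log2 2.82 ± 0.38). Prc1, which holds antiparallel microtubules together, measured 13.2, 9.26, 38.6 and 40.5 CPM (log2 1.87 ± 0.26).

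Diaph3 was already well detected in NS OPCs, at 56.6 and 55.1 CPM, and measured 159 and 158 CPM in COL (log2 1.57 ± 0.16, adjusted p = 0.00021). Atad2, a chromatin ATPase of S phase, measured 15.1, 19.5, 76.7 and 60.7 CPM (log2 2.05 ± 0.24), Smc4 16.4, 17.1, 51.1 and 61.9 CPM (log2 1.82 ± 0.22) and Brip1 5.48, 4.87, 26.1 and 28.2 CPM (log2 2.44 ± 0.32). Of the helicase subunits, Mcm5 was higher, at 1.83, 0.487, 8.32 and 6.75 CPM (log2 2.66 ± 0.61, adjusted p = 0.014), whereas Mcm6 and Rrm1, a subunit of ribonucleotide reductase, were not called. Mcm5, like Kif23 above, passed the filter on low counts through COL, and neither could be called lower. Mcm6 measured 15.5, 10.7, 18.4 and 20.2 CPM (log2 0.62 ± 0.30, adjusted p = 0.18) and Rrm1 8.67, 9.26, 11.3 and 12.3 CPM (log2 0.46 ± 0.34, adjusted p = 0.39). The summed OPC markers were 57.8 and 59.2 per 10,000 UMIs in NS and 58.1 and 53.2 in COL, and the 8 committed precursor markers were 36.0 and 29.1 against 37.6 and 48.9. The 10 oligodendrocyte markers were 37.6 and 40.4 against 24.7 and 34.3, and the microglial markers stayed between 0.868 and 1.44. Leaving out a library gave COL minus NS differences in the summed level of the members of 10.2 to 11.3 per 10,000 UMIs.

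**Figure D4:**
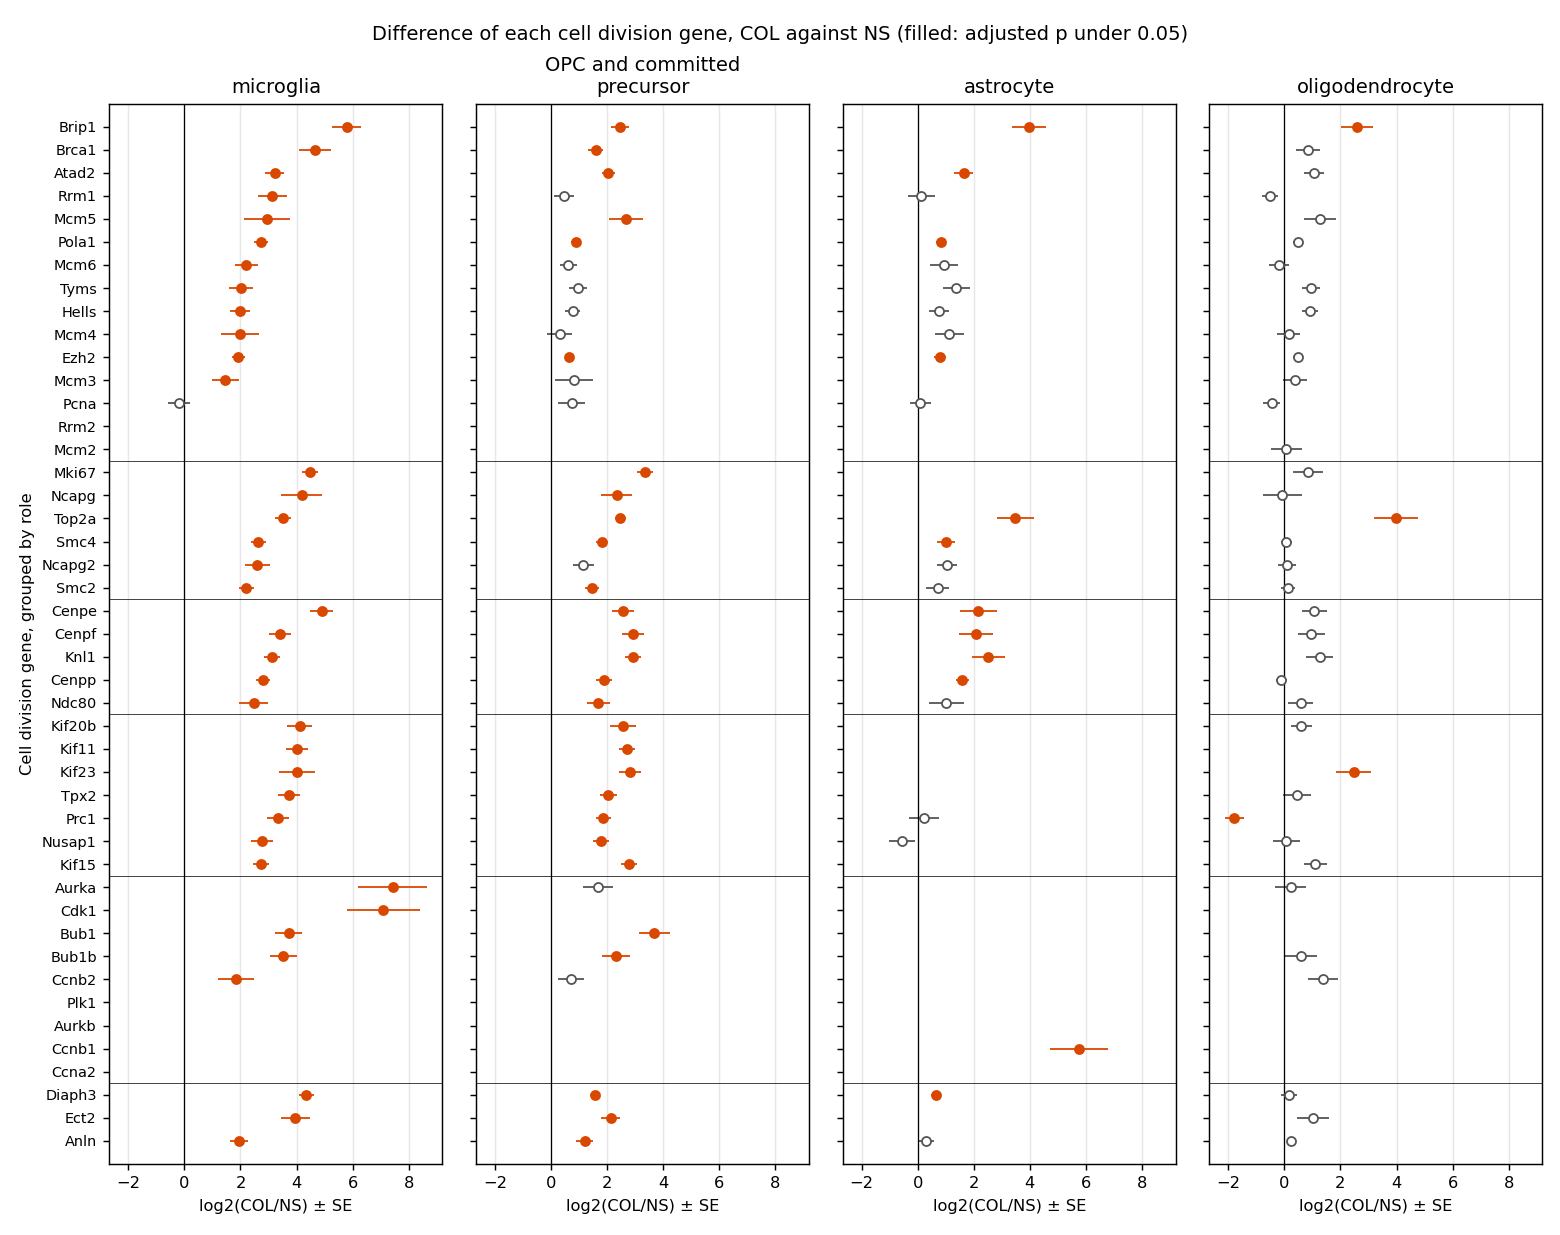
Log2 change in COL against NS (horizontal axis, bars ± SE from edgeR) of each member (rows, by functional group) in 4 cell types, with filled points for an adjusted p under 0.05 and no point for untested members. Filled points number 38 in microglia, 28 in OPCs, 12 in astrocytes and 4 in oligodendrocytes, and the fitted values of Cdk1 and Aurka in microglia stand against NS libraries with 0 UMIs and are no measure of size.

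The 10 members that were tested and not called in OPCs were Aurka, Ccnb2, Hells, Mcm3, Mcm4, Mcm6, Ncapg2, Pcna, Rrm1 and Tyms. All but Pcna were called in microglia, and whether the effects differed between the types is tested below by the interaction.

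In astrocytes a smaller set of members was higher. Of 24 members tested 12 were higher in COL and none was lower, where 8.81% of all 14401 genes tested were higher and 8.92% lower, and 21 members were below the filter. Brip1 measured 0.853, 0.830, 7.15 and 18.8 CPM (log2 3.98 ± 0.61, adjusted p = 0.0020), Cenpp 17.1, 18.0, 40.5 and 61.3 CPM (log2 1.60 ± 0.25) and Top2a 0.427, 2.77, 9.53 and 22.2 CPM (log2 3.47 ± 0.66). The UMIs of Top2a lay in 2 and 4 NS nuclei and in 4 and 14 COL nuclei. Ccnb1, the cyclin of mitotic entry, had 1 and 0 UMIs in NS and 18 and 8 in COL, and those of COL replicate 1 came from 3 nuclei. Of the members with levels given here, Brip1, Top2a and Ccnb1 passed the filter through COL and could not be called lower. Atad2, Pola1, Knl1, Diaph3, Ezh2, Cenpf, Cenpe and Smc4 were also called, with log2 changes between 0.66 and 2.52. The UMIs of Diaph3 lay in 94 and 115 COL nuclei. The summed astrocyte markers of these nuclei were 96.4 and 88.7 per 10,000 UMIs in NS and 81.5 and 86.6 in COL. The 6 ependymal markers were 1.05 and 0.0388 against 0.993 and 0.371, which overlapped, and the 9 macrophage markers were 0.0725 and 0.136 against 0.310 and 0.568, which did not. Their part in the levels of the division genes was not tested.

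Many of these calls were lost when a library was left out, but 1 group then held 1 library. The number of all genes called moved too, so that only sizes are given here. Some of the losses came with little change in size. Diaph3 had a log2 change of 0.58 without NS replicate 1 and 0.67 without NS replicate 2, where the full set of libraries gave 0.66, Pola1 0.80 and 0.81 where it gave 0.83, and Smc4 0.96 and 1.01 where it gave 1.02. For Cenpf the change was 1.49 without NS replicate 1 and 2.09 with all libraries. COL replicate 2 held 9 of the 10 COL astrocytes with at least 5 core genes. Without it the log2 change was 1.25 for Knl1, 1.03 for Cenpf and 0.62 for Smc4. With all libraries these were 2.52, 2.09 and 1.02. Mki67, which fell under the filter, measured 0.853, 0.830, 2.38 and 19.3 CPM. The typing by each nucleus gave 6 calls, where 1098 of 13913 genes were higher. The COL astrocytes with at least 5 core genes were deeper than the rest, with a median of 15230 against 6131 UMIs, and held 52.5 UMIs of astrocyte markers per 10,000 against 86.6.

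Of the 37 members tested in oligodendrocytes 3 were higher in COL, where 9.99% of all 17125 genes tested were higher, and 1 was lower, where 12.3% were lower. The 3 higher members, Top2a, Brip1 and Kif23, passed the filter on low counts through COL and could not be called lower. Top2a measured 0.271, 0.178, 1.60 and 5.34 CPM (log2 3.99 ± 0.78, adjusted p = 0.012), with 15 and 54 UMIs in 15 and 48 COL nuclei, that is mostly 1 UMI a nucleus. Brip1 (0.271, 0.356, 1.60 and 2.18 CPM) and Kif23 (0.407, 0.178, 1.60 and 1.38 CPM) were higher, and were not called without NS replicate 1 (adjusted p = 0.090 and 0.077) or without NS replicate 2 (adjusted p = 0.083 and 0.28); Kif23 was also lost without COL replicate 1 (adjusted p = 0.11). Prc1 was lower, at 14.2, 15.8, 2.56 and 5.73 CPM (log2 -1.78 ± 0.35, adjusted p = 0.012). DESeq2 called Top2a higher and Prc1 lower, where it called 7.79% of all genes higher and 9.21% lower. Anln measured 232, 258, 282 and 270 CPM, the highest level of this gene in any type, and was not called.

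In vascular nuclei, which numbered 98 in NS and 78 in COL, 5 members passed the filter and Diaph3 was higher, where 0.536% of all 4662 genes tested were higher and 1.24% lower. Diaph3 had 0 UMIs in both NS libraries and 11 and 31 in COL, at least 6.06-fold higher against a floor of 3 UMIs over the group, and these UMIs came from 2 and 4 nuclei. It passed the filter through the COL libraries and could not be called lower. The call was lost without NS replicate 2, without COL replicate 1 and without COL replicate 2. Each of these fits left 1 library in a group, and the number of all genes called moved too. Singled out after the values were seen, Top2a had 0 UMIs in NS and 14 and 18 in COL, in 2 nuclei of each library.

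In neurons none of 43 members tested was called by edgeR, where 0% of all 23751 genes tested were called. An unadjusted p under 0.05 was found for 12 of the 43 members and for 6665 of the 23751 genes, shares close to each other. The background in neurons moved with the libraries: without COL replicate 2, 1781 genes were called higher and 3617 lower, and without COL replicate 1, 201 and 161, while between 0 and 1 member was called higher and between 0 and 3 lower with any library left out. DESeq2 called Top2a higher and Prc1 lower, and by the same tool 3.22% of all genes were higher and 7.11% lower, so that 1 of 43 members in each direction was no more than the share over all genes. Top2a in neurons measured 0.284, 0.327, 1.28 and 2.73 CPM (log2 2.84, adjusted p = 0.11 by edgeR). COL replicate 2 had the highest Top2a level in neurons, oligodendrocytes, astrocytes and microglia, and the part of the microglial transcripts in the levels of the other types was not tested.

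Over the sum of all nuclei of a library, 21 of 45 members were higher and none was lower, where 5.02% of 25570 genes tested were higher and 4.43% lower. Top2a (log2 3.48 ± 0.31, adjusted p = 0.0040), Knl1 (log2 2.40 ± 0.24) and Mki67 (log2 2.94 ± 0.30) had the smallest p. These sums mix a change within types with the larger number of microglia and macrophages among COL nuclei, and fewer nuclei of a type and less RNA per nucleus cannot be told apart in them. The summed members were 2.74 and 2.92 per 10,000 UMIs in NS and 3.73 and 4.90 in COL, so that the 7.91-fold ratio within microglia stood beside a 1.53-fold ratio over all nuclei.

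The difference between the types was tested by the interaction of group and cell type, with the library as a block. The COL effect was larger in microglia than in neurons for 31 of 45 members, where 4.16% of all 22793 genes were larger, and larger than in oligodendrocytes for 26 of 45, where 4.11% of 17330 genes were. Against astrocytes it was larger for 14 of 44 (3.17% of 14917 genes) and against OPCs for 10 of 43 (4.11% of 14860 genes). The count against astrocytes was 2 by DESeq2 (0.737% of genes larger and 0.898% smaller) and 5 without the library block (0.791%). Without NS replicate 1, which left 1 NS library, this count fell, as did the number of all genes called. The count against oligodendrocytes was 17 by DESeq2 (1.07%) and 17 without the block (0.946%). Against vascular nuclei the COL effect was larger for 0 of 33 (0.418% of 10536 genes). An unadjusted p under 0.05 was found for 2 of these members and for 836 of the 10536 genes. No member was called with a smaller COL effect in microglia than in any of these types, although the median difference over the 33 members against vascular nuclei was -0.61 on the log2 scale. The effect was called smaller for 4.68% of all genes against neurons, 3.84% against oligodendrocytes, 3.61% against astrocytes, 4.54% against OPCs and 0.152% against vascular nuclei.

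Against OPCs the members called with a larger microglial effect were mostly replication genes, 7 of 15, whereas 0 of 7 spindle and 0 of 6 chromosome structure genes passed. The median differences in log2 change were alike, at 1.21 for the replication, 1.26 for the spindle and 1.05 for the chromosome structure genes. These counts of calls therefore do not show a larger difference in the replication genes. Diaph3 had the smallest p, with a difference of 2.73 ± 0.36 in log2 change (adjusted p = 5.6e-12), followed by Pola1 (1.77 ± 0.27, adjusted p = 1.5e-08), Brca1 (3.01 ± 0.68) and Ezh2 (1.21 ± 0.28). Brip1, Rrm1, Cenpe, Atad2, Aurka and Mcm6 completed the 10. Aurka had 0 UMIs in both NS microglial libraries, so that its difference has no measured size. For Diaph3 and Pola1 the difference came with NS levels that were higher in OPCs than in microglia: Diaph3 measured 56.6 and 55.1 CPM in NS OPCs against 8.08 and 9.77 in NS microglia, while the COL levels were 159 and 158 against 170 and 186. Mki67 (log2 4.48 in microglia and 3.36 in OPCs) and Top2a (3.53 and 2.48) were not called. DESeq2 called Diaph3 and Pola1 alone of the members, where it called 1.47% of all genes larger and 0.7% smaller. Some of the 10 calls were lost with each library left out in turn. Such a fit left 1 library in a group, and the number of all genes called moved too.

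Against neurons, with NS and COL libraries in 1 fit, microglia and OPCs each had 41 of 45 members higher and none lower, where 24.2% and 19.1% of all genes tested were higher and 28.1% and 23.8% lower. Top2a was the first by p in both, with log2 differences of 5.89 ± 0.23 in microglia (adjusted p = 3.6e-10) and 5.76 ± 0.20 in OPCs (adjusted p = 2.9e-14). Vascular nuclei had 21 of 43 higher and none lower, where 10.7% and 15.6% of genes were, and the higher count fell to 4 without COL replicate 2, where 7.42% of genes were higher. Astrocytes had 17 of 45 higher and 2 lower, where 22.2% and 26.8% of genes were higher and lower, and the member with the smallest p was Diaph3 (log2 3.28 ± 0.16). Without COL replicate 2, 7 were higher, where 21.4% of genes were. Oligodendrocytes had 14 of 43 higher and 9 lower, where 29.6% and 37.2% of genes were, and Anln led with a log2 difference of 5.02 ± 0.12. Neurons themselves were not at 0: Pola1 measured 47.4, 46.0, 42.4 and 47.0 CPM and Ezh2 17.7, 18.0, 18.2 and 18.8 CPM, and neither was called.

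The 22 members outside the core list had no part in calling a nucleus dividing, and give a view of the called nuclei that the rule did not use. In COL microglia 21 of the 22 were higher in nuclei with at least 5 core genes than in nuclei with fewer than 3 in both libraries, and in COL OPCs 22 of 22. Of all 18833 genes outside the core list with a UMI in both COL libraries of microglia 25% were higher in both and 36.4% lower, and in OPCs 25.5% and 34.9% of 18526. Of the 100 other cell cycle genes 92 were higher in both libraries in microglia and 94 in OPCs. Diaph3 measured 575 and 617 CPM in called microglia against 20.4 and 31.4 in the rest, and 618 and 689 against 73.5 and 69.3 in OPCs. Cenpp measured 429 and 454 CPM against 17.8 and 13.8 in microglia, and 508 and 469 against 21.5 and 17.2 in OPCs. Mcm2 was the exception, at 7.04 against 7.64 CPM in COL replicate 1 and 16.9 against 7.72 in replicate 2, from 3 to 14 UMIs. Pcna, level between the groups in microglia, measured 25.8 and 27.6 CPM in called against 9.34 and 11.6 in other microglia. In astrocytes 16 of 22 members were higher in both libraries and 0 lower, where 10.6% and 50.5% of 18591 genes were, and in macrophages 7 were higher and 5 lower, where 6.4% and 57.6% of 19094 genes were. For astrocytes and for macrophages alike, the called nuclei were 1 in COL replicate 1 and 9 in COL replicate 2. A direction shared by both libraries therefore rests on 1 nucleus in COL replicate 1. The other cell cycle genes had 38 of 100 higher and 11 lower in astrocytes, and 25 higher and 13 lower in macrophages. These shares include genes with few UMIs, which are lower wherever the called nuclei hold none. Called nuclei were deeper, at medians of 6260 against 3900 UMIs in microglia and 10254 against 7387 in OPCs, while CPM are relative to depth. No test was made between nuclei of the same library.

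**Figure D5:**
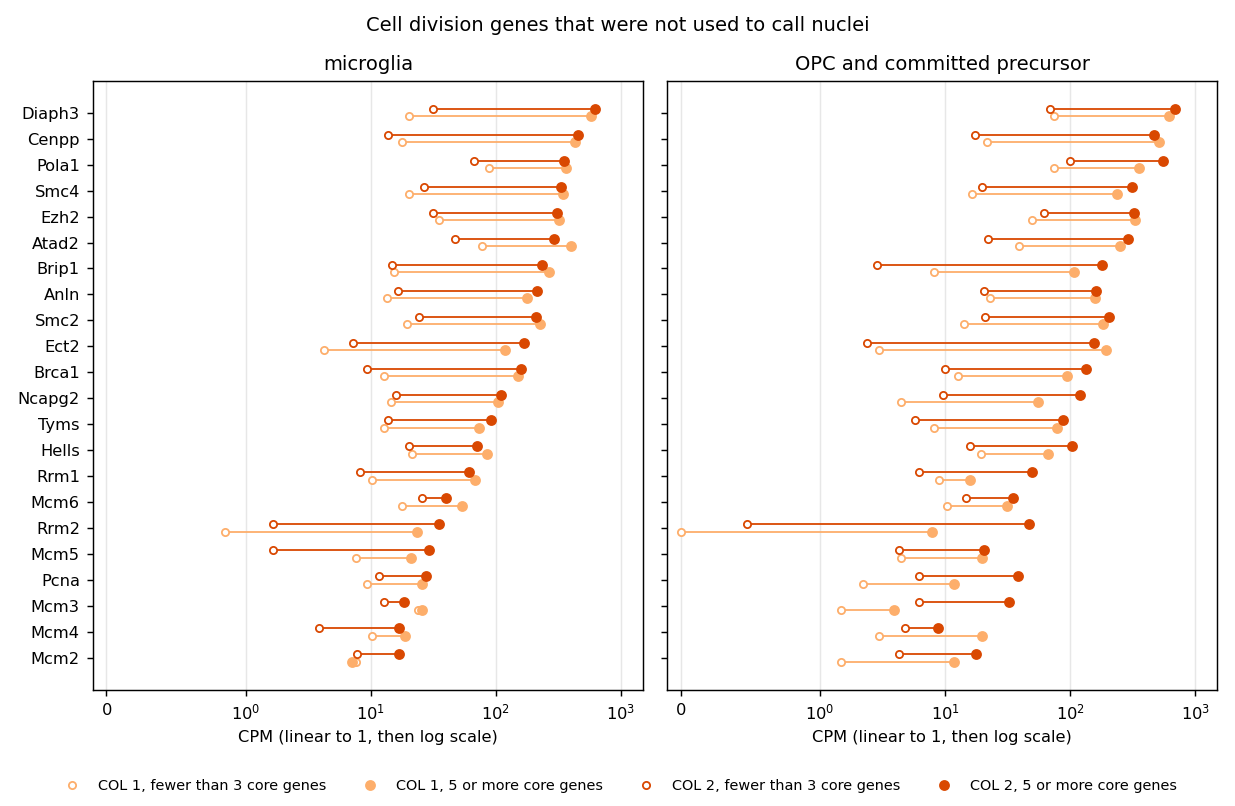
Level (CPM, linear up to 1 and then on a log scale) of each of the 22 members outside the core list (rows) in COL nuclei with at least 5 core genes (filled) and with fewer than 3 (open), joined by a line for each library. Filled points lie to the right of open ones, except for Mcm2 in microglia of COL replicate 1.

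The called nuclei kept the markers of their type to different degrees. In called microglia 1 of the 10 microglial markers was higher in both libraries and 8 were lower. Siglech measured 281 and 224 CPM against 636 and 537 in the rest and P2ry12 401 and 431 against 469 and 464, and the summed microglial markers were 29.2 per 10,000 against 38.6. Their macrophage markers were 5.90 per 10,000 against 4.98. In called OPCs 1 of the 8 OPC markers was higher in both libraries and 5 were lower. Pdgfra, the one that was higher, measured 402 and 495 CPM against 355 and 368 in the rest, Vcan measured 748 and 782 CPM against 1173 and 1089, and the summed OPC markers were 50.9 per 10,000 against 55.9, while the committed precursor markers were 14.7 against 50.8. Microglial markers in called OPCs were 0.991 per 10,000, and OPC markers in called microglia 3.64, each near the level in the other nuclei of its type (1.16 and 3.48).

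A list of 100 other cell cycle genes, none of them members, was counted in the same fits. In microglia 58 of 82 tested were higher and none was lower, and in OPCs 47 of 86 and none. Astrocytes had 11 of 49 higher, oligodendrocytes 2 of 67 higher and 4 lower, vascular nuclei 0 of 7 and neurons 0 of 90. The shares of all genes higher in these types are those given for the members, 13.5% in microglia, 7.57% in OPCs, 8.81% in astrocytes, 9.99% in oligodendrocytes, 0.536% in vascular nuclei and 0% in neurons. Neil3, a DNA glycosylase of S phase, measured 6.73, 6.98, 60.3 and 81.7 CPM in microglia (log2 3.41 ± 0.36, adjusted p = 0.00011) and 5.02, 5.85, 31.5 and 31.8 CPM in OPCs (log2 2.59 ± 0.31). Uhrf1, which recruits the maintenance DNA methyltransferase, had 0 UMIs in NS microglia and 40 and 61 in COL. Aspm, a spindle pole protein, led in OPCs with 4.11, 1.46, 37.4 and 27.8 CPM (log2 3.56 ± 0.42). Neil3 and Uhrf1 in microglia and Aspm in OPCs passed the filter through COL and could not be called lower.

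The list also held inhibitors of the cycle. Cdkn1a, which encodes the cyclin-dependent kinase inhibitor p21, had the smallest p of the list in astrocytes (1.28, 1.94, 10.3 and 13.3 CPM, log2 2.93 ± 0.49, adjusted p = 0.0032), in oligodendrocytes (1.49, 1.25, 6.07 and 6.82 CPM, log2 2.32 ± 0.35, adjusted p = 0.0065) and over all nuclei (log2 2.69 ± 0.28, adjusted p = 0.0058). Its UMIs in the COL libraries were 13 and 27 in astrocytes and 57 and 69 in oligodendrocytes. In astrocytes Cdkn1a passed the filter through COL and could not be called lower. Among the other inhibitors, named after their values were seen, the calls went both ways. Rb1, the retinoblastoma protein gene, was higher in oligodendrocytes, at 133, 138, 259 and 216 CPM (log2 0.89 ± 0.18, adjusted p = 0.012). In microglia its relative Rbl1 was higher (26.9, 30.7, 61.5 and 58.6 CPM, log2 1.10 ± 0.26, adjusted p = 0.0092), as was Cdkn2c (0, 2.79, 8.45 and 9.04 CPM, log2 2.64 ± 0.84, adjusted p = 0.036). Cdkn2c passed the filter there through COL and could not be called lower. Cdkn2d was lower in oligodendrocytes, at 11.4, 10.9, 4.05 and 6.33 CPM (log2 -1.02 ± 0.29, adjusted p = 0.037). In astrocytes Cdkn2d (log2 -0.86, adjusted p = 0.18) and Cdkn1b (log2 -0.81, adjusted p = 0.11) were not called. Cdk6, a kinase of the early cycle, was also higher in astrocytes (5.55, 6.09, 46.1 and 15.3 CPM, log2 2.36 ± 0.47). It had 0 UMIs in the COL astrocytes with at least 5 core genes, which were 1 and 9 nuclei, too few for a 0 to be read.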

How the data were processed

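Single-nucleus RNA was measured in 4 thalamus libraries, 2 of NS and 2 of COL. The deposited values are raw UMI counts for each nucleus, which the authors made with Cell Ranger 1.2.0 on genome build mm10; whether intronic reads were counted is not given in the sources used here. No removal of doublets or free RNA was stated. Following the study's filter, nuclei with more than 50 genes and under 5% mitochondrial UMIs were kept, which removed 41 of 32332 barcodes.

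Nuclei were clustered with Seurat 5.3.0 (5000 variable genes less 68 cell cycle genes, 15 components, resolution 0.8) and clusters were named from marker lists, with a score minimum of 0.6 on their own list and a maximum of 0.48 on the other lists of neurons, oligodendrocytes, OPCs, astrocytes and microglia (not applied between OPCs and oligodendrocytes, which share a lineage), both set after the clusters were seen. Scores on the macrophage, dendritic, neutrophil and ependymal lists had no maximum. Counts were summed per library and type, and those types whose 4 libraries each held 20 nuclei or more were tested by edgeR 4.0.16 (TMM, quasi-likelihood, Benjamini-Hochberg threshold 0.05 over all genes). The fits were also run on simulated data, the results of which are not given here. DESeq2 1.42.0, no filter, left-out libraries, typing by nucleus, removal of marked doublets, other thresholds and thinning were alternatives. Intervals are exact Clopper-Pearson at 95%, and a count of 0 was read as under 3 counts. CPM were computed here from the UMIs of the type.

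The members, lists and tests were chosen with earlier results of these data known. Members named were those called in a comparison, up to 12 by smallest p, then those with the most UMIs, and at most 8 other genes. Others are said to be chosen after their values were seen, and members given for a contrast with a named one, such as Anln, Pcna, Mcm6 and Rrm1, were also chosen in that way. Since 2 libraries a group each pool 3 mice, p-values measure the spread between pools. Gene positions are of GRCm38, on which 5 members overlap a protein-coding gene on the other strand, and Ccnb1, Ccnb2, Pcna and Tyms have named pseudogenes, so that their counts are uncertain. The level of 1 marker gene is not reported here.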

Additional observations from a re-analysis of the deposited data

Results flagged for a closer look

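The COL effect of the cell division genes differed between cell types by the interaction term of edgeR. It was larger in microglia than in neurons for 31 members, than in oligodendrocytes for 26, than in astrocytes for 14 and than in OPCs for 10, and it was smaller in microglia for 0 members in each of the 4. Of all genes, 4.16%, 4.11%, 3.17% and 4.11% were larger and 4.68%, 3.84%, 3.61% and 4.54% smaller. By DESeq2 the members larger than in oligodendrocytes, astrocytes and OPCs were 17, 2 and 2 (1.07%, 0.737% and 1.47% of genes). Without the library block they were 17, 5 and 6 (164 of 17330, 118 of 14917 and 155 of 14860 genes). Against vascular nuclei the effect was larger for 0 of 33 members tested, where 0.418% of genes were larger, with a median difference of -0.61 on the log2 scale.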

How the results depend on the processing

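Counts of called members in neurons, oligodendrocytes, astrocytes and vascular nuclei moved with the processing, and those in microglia and OPCs stayed within 1.5 times under each alternative run. DESeq2 called 1 member higher and 1 lower in neurons, where it called 3.22% of all genes higher and 7.11% lower. It called 1 higher in oligodendrocytes, 6 in astrocytes and 0 in vascular nuclei, where 7.79%, 4.75% and 0.15% of genes were higher. For microglia minus oligodendrocytes, astrocytes and OPCs it called 17, 2 and 2, where 1.07%, 0.737% and 1.47% of genes were larger. Against neurons it called 13 higher in vascular nuclei (2389 of 21838 genes) and 1 lower in astrocytes (5292 of 23592 genes). No filter gave 10 higher in oligodendrocytes (2399 of 31057 genes), 20 in astrocytes (1436 of 28522) and 4 in vascular nuclei (93 of 20470). For microglia minus OPCs it gave 17 (1089 of 28970 genes). Typing by nucleus gave 8 in oligodendrocytes (1688 of 17205 genes), 6 in astrocytes (1098 of 13913) and 0 in vascular nuclei, where 0 of 3810 genes were called. Removal of marked doublets gave 0 in vascular nuclei (21 of 4504 genes). The replicate numbers are shared by the groups, but correlations of the replicate differences ran from -0.0125 to 0.201, so that the numbers were not taken as pairs. The replicate block gave 1 higher in neurons (206 of 23751 genes) and 8 in oligodendrocytes (2341 of 17125 genes). It moved no other count of calls by over 1.5 times. Without the library block, microglia minus oligodendrocytes, astrocytes and OPCs gave 17, 5 and 6 (164 of 17330, 118 of 14917 and 155 of 14860 genes). Against neurons, 4 were lower in oligodendrocytes (6230 of 21015 genes). In astrocytes 8 were higher and 1 lower, where 3731 and 4287 of 21309 genes were.

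The COL minus NS difference in the summed level, per 10,000 UMIs, was 0.0666 for the core genes, 0.980 with typing by nucleus and 0.284 without Anln, Cenpp, Diaph3, Brip1, Smc4 and Ezh2 in oligodendrocytes. It was 1.78 as a mean over nuclei, 0.843 for the core genes and 1.78 without these 6 in astrocytes. In microglia it was 17.1 as a mean over nuclei, 11.3 for the core genes, 21.4 with typing by nucleus and 17.1 without the 6. In the same order it was 8.40, 5.42, 8.83 and 7.87 in OPCs, and 2.21, 3.62, 9.87 and 6.02 in vascular nuclei, where removal of doublets gave 5.93. The difference in dividing share, in percentage points, with at least 2 core genes was 5.01 in neurons, 2.28 in oligodendrocytes, 5.16 in astrocytes, 24.4 in microglia, 16.7 in OPCs, 7.79 in vascular nuclei and 6.58 in macrophages. With at least 5 it was 0.127 in neurons, 0.0322 in oligodendrocytes, 17.1 in microglia, 9.48 in OPCs and 1.08 in macrophages. Thinned to 2000 and to 1000 UMIs it was 0.0412 and 0.0171 in neurons, 0.0322 and 0.0322 in oligodendrocytes, 1.07 and 0.314 in astrocytes, 15.2 and 11.7 in microglia, 7.58 and 5.55 in OPCs, 3.0 and 2.0 in vascular nuclei and 1.69 and 0.930 in macrophages. Thinning to 2000 UMIs gave no value for T and NK cells, as NS replicate 2 kept 0 such nuclei. The macrophage differences rest on at most 10 NS nuclei, of which 0 were called, and allow no comparison of the groups. Typing by nucleus gave 0.360 in oligodendrocytes and 16.4 in microglia, and leaving Top2a and Mki67 out of the core 18.6 in microglia and 1.80 in macrophages.

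With a library left out, 1 group held 1 library and the number of all genes called between the groups moved too. Ranges of members called between the groups are therefore not listed here. Against neurons, members called higher with each library left out in turn ranged over 12 to 14 in oligodendrocytes (lower 4 to 9), 7 to 19 in astrocytes (lower 1 to 3), 30 to 43 in microglia, 36 to 43 in OPCs and 4 to 20 in vascular nuclei. All genes called higher ranged over 5839 to 7029, 4343 to 5231, 4278 to 5082, 3654 to 3798 and 1577 to 2124 in the same order. Genes called lower ranged over 7132 to 7747 in oligodendrocytes and 4745 to 5751 in astrocytes, and 21113 to 23088 genes were tested in these fits. With each library left out in turn, COL minus NS differences in summed level ranged over -0.225 to 0.206 in neurons, 0.636 to 0.789 in oligodendrocytes, 1.86 to 4.07 in astrocytes, 22.2 to 23.5 in microglia, 10.2 to 11.3 in OPCs, 7.41 to 9.26 in vascular nuclei, 0.224 to 2.30 in macrophages and -31.3 to 2.41 in T and NK cells. Differences in dividing share ranged over 0.956 to 2.90, 0.0383 to 0.299, 1.39 to 3.12, 19.8 to 20.4, 11.0 to 14.9, 3.57 to 6.0, 2.16 to 3.09 and -9.54 to 1.57 percentage points in the same order. Knl1, vascular against neuron, turned to -0.255 without COL replicate 2 (edgeR adjusted p = 0.94). The cause of these changes was not tested. The small numbers of vascular, macrophage and T and NK nuclei limit what their values can show.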
